A study of Mus musculus with 17 samples.

Results

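The growth factors CSF-1 (M-CSF), IL-34, GM-CSF and their receptors, with the receptor of G-CSF, were followed in macrophages with high surface F4/80 that had been sorted out of kidney tissue. The donors were NZB/W mice, a hybrid strain in which lupus nephritis arises spontaneously. The 8 genes were taken by name: Csf1, Il34 and Csf2 for the ligands, and Csf1r, Csf2ra, Csf2rb, Csf2rb2 and Csf3r for the receptors. Each had 1 probe set among the 15780 named genes of the array, so all 8 were measured. Arrays came from 3 groups. Prenephritic samples (n = 6) came from NZB/W mice 8 to 16 weeks of age, which the titles call young. Nephritic samples (n = 7) came from mice 2 to 6 weeks past the onset of proteinuria. Remission samples (n = 4) came from mice 3 to 4 weeks after complete remission, which had followed treatment with the cytotoxic drug cyclophosphamide (1 dose), with CTLA4Ig (6 doses), a protein that blocks costimulation of T cells, and with an antibody to CD154. The labels do not give the ages of the nephritic and remission mice, so nephritis and remission cannot be told apart from age, nor remission from the drugs. Whether each sample was a separate animal is not stated, and the p-values therefore measure the spread between samples, which may be technical.

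CSF-1 and IL-34 are separate ligands of one receptor tyrosine kinase, the product of Csf1r, on which most tissue macrophages depend for survival and proliferation. GM-CSF, the product of Csf2, binds a receptor made of a ligand-specific alpha chain, from Csf2ra, and a signalling beta common chain, from Csf2rb, that the IL-3 and IL-5 receptors share. In mice a neighbouring, closely related gene, Csf2rb2, encodes a beta chain that pairs with the IL-3 receptor alone. In the kidney, tubule cells are a known source of CSF-1 and IL-34, and the macrophages are the cells that carry their receptor. Csf3r encodes the G-CSF receptor, best known from neutrophils and their precursors and also present on monocytes.

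The promoters of the receptor genes that moved together or apart are shown first, to give the sequence upstream of each. RefSeq's table of promoters on GRCm38.p6 listed 5 of the 8 genes (Csf1, Csf2, Csf2ra, Csf2rb2 and Csf3r). Csf2rb2 and Csf3r were higher in nephritis, and Csf2ra was lower. The 250 bases before the start of each lie at chr15:78305722-78305971 on the minus strand for Csf2rb2, chr4:126024409-126024658 on the plus strand for Csf3r, and chr19:61228419-61228668 on the minus strand for Csf2ra. Capitals mark matches, on either strand, to the ETS core GGAAG, which PU.1 and other ETS factors read, and to the STAT motif TTCNNNGAA.
Csf2rb2: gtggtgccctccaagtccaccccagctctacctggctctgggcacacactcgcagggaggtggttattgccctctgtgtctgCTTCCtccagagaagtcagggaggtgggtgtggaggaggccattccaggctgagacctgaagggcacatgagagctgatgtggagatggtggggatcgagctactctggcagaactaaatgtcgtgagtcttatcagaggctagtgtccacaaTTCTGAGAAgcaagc
Csf3r: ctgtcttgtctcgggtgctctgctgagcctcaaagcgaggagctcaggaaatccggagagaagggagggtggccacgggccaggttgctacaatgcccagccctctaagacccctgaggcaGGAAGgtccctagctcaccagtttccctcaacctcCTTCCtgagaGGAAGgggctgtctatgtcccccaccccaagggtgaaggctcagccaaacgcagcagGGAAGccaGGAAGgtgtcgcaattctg
Csf2ra: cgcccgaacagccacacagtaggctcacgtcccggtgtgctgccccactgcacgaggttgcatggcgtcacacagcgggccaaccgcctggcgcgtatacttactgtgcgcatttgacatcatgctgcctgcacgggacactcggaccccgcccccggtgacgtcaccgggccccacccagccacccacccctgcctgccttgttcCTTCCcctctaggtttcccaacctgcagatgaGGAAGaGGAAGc
The window searched ran from 250 bases before the start to 50 bases after it. In the Csf2rb2 window a STAT match, TTCTGAGAA, lay from -15 to -7. A match to the longer PU.1 motif GAGGAAGT lay on the opposite strand from 28 to 35 bases after the start, downstream of the printed bases, and it contains one of the 2 ETS core matches of that window. The Csf3r window held 5 ETS core matches and the Csf2ra window 3. Of 32851 promoters of the same length, 3.20% held the PU.1 motif and 8.30% the STAT motif, and 37.9%, 16.5% and 2.06% held at least 2, 3 and 5 ETS cores. No match to the RUNX core TGTGGT or the C/EBP motif TTGCNNAA was found in these 3 windows, against 16.8% and 10.8% of all promoters. The overlapping motifs share letters, the ETS core was added after the data had been seen, and a match describes letters, not binding.

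The identity of the sorted cells was read from 12 macrophage markers, none of which averaged below the lower quartile of all probe set means (5.03 on the log2 scale) in any group. Their mean level ranged from 11.97 to 12.28 over the prenephritic arrays, 12.30 to 12.56 over the nephritic and 12.05 to 12.33 over the remission arrays. Adgre1, the gene of F4/80 itself, averaged 13.08, 13.24 and 13.22 in the same order. The arrays also carried kidney tubule transcripts in amounts that varied widely. The mean level of 14 proximal tubule genes ranged from 9.04 to 11.11 over prenephritic, 7.68 to 11.02 over nephritic and 10.16 to 11.64 over remission arrays, and it was lowest in nephritic array 3. Pairs of arrays correlated between 0.942 and 0.994. Prenephritic array 5 and nephritic array 6, which had stood apart in earlier results, were also left out together. In these bulk samples, fewer cells of a type and less RNA per cell cannot be told apart.

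Between nephritic and prenephritic macrophages, 4 of the 8 genes were called higher and 1 lower. The 3 that rose most were receptor chains: Csf3r by 1.58-fold, Csf2rb by 1.50-fold and Csf2rb2 by 1.41-fold. Il34 was also called higher, at a mean level below the lower quartile in every group, where the measured 1.31-fold difference is compressed. With dim genes left out, 3 genes were called higher. Csf2ra fell by a factor of 1.25. Over all named genes, 6.74% were called higher and 5.32% lower in the same comparison (limma, Benjamini-Hochberg adjusted p under 0.05), and the median difference was 0.26 for the 8 genes against -0.02 for all genes. From nephritis to remission, 3 of the 8 genes fell and 0 rose. Those 3 were again Csf3r, Csf2rb and Csf2rb2, each lower by a factor of 1.73 to 1.80. Over all genes, 10.0% were called lower and 3.27% higher, and the medians were -0.28 for the 8 genes and -0.03 for all genes. Between remission and prenephritic arrays, 0 of the 8 genes passed the test in either direction with limma, where 0.00634% of all genes were called lower (1 gene) and 0% higher. At an unadjusted p under 0.05 that comparison held 1 of the 8 genes, Csf2ra, among 1939 lower and 1007 higher genes. The comparisons share arrays, so a rise and a fall around the nephritic group are not separate evidence. Levels and differences are on the log2 scale of the deposited values, and folds are computed back from it.

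**Figure D1:**
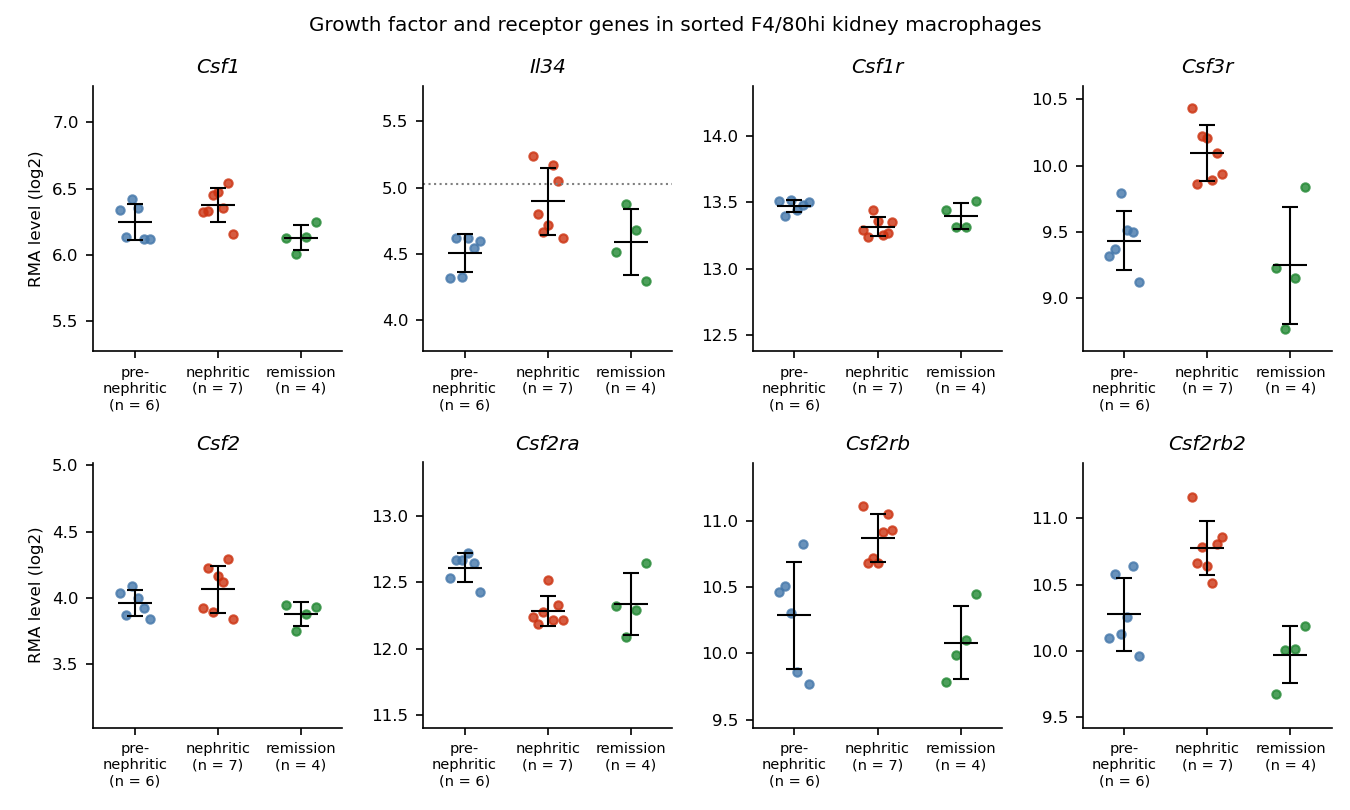
Deposited log2 level (RMA) of each of the 8 genes on every array, by group (prenephritic n = 6, nephritic n = 7, remission n = 4). Points are arrays, long bars are group means and whiskers are 1 SD, every y axis spans the same log2 range, and the dotted line in the Il34 panel is the lower quartile of all probe set means (5.03). The nephritic points of Csf3r lie above all prenephritic and all remission points, and those of Csf2rb and Csf2rb2 above all remission points. The share of all genes that separate in this way was not counted.

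Csf3r encodes the receptor of G-CSF, the factor that drives granulocyte production. Its prenephritic level ran from 9.12 to 9.79 with a median of 9.43, and its nephritic level from 9.86 to 10.43 with a median of 10.10. The 4 remission arrays read 9.23, 8.77, 9.15 and 9.84. Every nephritic array was above every prenephritic and every remission array, although remission array 4 lay just under the lowest nephritic one. The share of all genes without overlap was not counted, so its absence only describes Csf3r, and likewise Csf2rb and Csf2rb2 below. The rise in nephritis was 0.66 ± 0.15 (SE; 95% interval 0.35 to 0.97; limma, adjusted p = 0.0073). The fall in remission was -0.85 ± 0.17 (interval -1.20 to -0.49; limma, adjusted p = 0.0035). Remission was -0.19 ± 0.17 from prenephritic, with an interval of -0.55 to 0.18 (adjusted p = 0.55). Both calls held in all 27 alternatives, with differences of 0.60 to 0.73 and of -1.04 to -0.59.

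Because Csf3r is a neutrophil receptor too, markers of granulocytes and monocytes were read beside it. Of 12 measured neutrophil markers, 5 averaged below the lower quartile in each group, and the granule genes Elane and Mpo averaged 3.91 and 3.98 in nephritis. Cxcr2, a neutrophil chemokine receptor, averaged 4.31, 4.04 and 4.06 in prenephritic, nephritic and remission arrays. The calprotectin gene S100a8 averaged 7.45, 7.29 and 7.25 and did not pass the test (adjusted p = 0.93 in nephritis). The mean level of the neutrophil list ranged from 5.62 to 6.99, from 5.71 to 6.57 and from 5.50 to 6.48 over the arrays of the 3 groups, which overlapped throughout. In nephritis 1 of the 12 was higher, the formyl peptide receptor Fpr2, and 1 was lower, Mmp9. Of 8 measured monocyte markers, 4 were higher in nephritis (Hp by 1.88, Ms4a4c by 0.90, Plac8 by 0.86 and Ccr2 by 0.40) and the same 4 were lower in remission. The other 4 were not called, and 2 of the 8 had negative differences in nephritis. Over all genes 6.74% were called higher in nephritis and 10.0% lower in remission. The mean level of the monocyte markers ranged from 8.38 to 9.24 over prenephritic, 8.88 to 9.81 over nephritic and 8.35 to 8.95 over remission arrays. The part of these markers in the result was not tested.

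Csf2rb encodes the beta common chain that carries the signal of the GM-CSF, IL-3 and IL-5 receptors. Its prenephritic arrays were spread from 9.77 to 10.82 with a median of 10.38, and its nephritic arrays lay more tightly between 10.68 and 11.11 with a median of 10.91. Remission arrays read 9.79, 9.99, 10.10 and 10.45. In words, 4 of 7 nephritic arrays were above the highest prenephritic one, 5 of 6 prenephritic arrays were below the lowest nephritic one, and all 4 remission arrays were below every nephritic array. The rise was 0.58 ± 0.16 (interval 0.25 to 0.91; limma, adjusted p = 0.022). The fall was -0.79 ± 0.18 (interval -1.16 to -0.42; limma, adjusted p = 0.0078). Without prenephritic array 4 the rise was 0.50 with an adjusted p of 0.0504, just past the threshold. With the tubule score as a covariate the fall was -0.67 (adjusted p = 0.054).

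Csf2rb2, the IL-3-specific beta chain gene next to Csf2rb, followed the same course. Its level ran from 9.96 to 10.64 before nephritis (median 10.19) and from 10.52 to 11.16 in nephritis (median 10.78). In remission it read 9.68, 10.01, 10.02 and 10.19. Again 6 of 7 nephritic arrays were above the highest prenephritic one and all 4 remission arrays were below the lowest nephritic one, while remission and prenephritic arrays overlapped. The rise was 0.50 ± 0.13 (interval 0.23 to 0.76; limma, adjusted p = 0.015) and the fall -0.80 ± 0.14 (interval -1.10 to -0.50; limma, adjusted p = 0.0016). Remission lay -0.30 ± 0.15 from prenephritic, and the interval of -0.61 to 0.00413 reached 0 (adjusted p = 0.27). The fall held in all 27 alternatives. The Csf2rb and Csf2rb2 genes are near-identical over much of their length, and no label says whether the probes tell them apart, so their separate values are uncertain. Over the 17 arrays the pair correlated at r = 0.89, and at 0.72 after subtracting group means. Within an array, Csf2rb minus Csf2rb2 averaged 0.01 ± 0.28, 0.10 ± 0.17 and 0.11 ± 0.12 (SD) in the 3 groups.

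Csf2ra encodes the alpha chain that gives the GM-CSF receptor its specificity, and its mean in nephritis went the other way from those of the beta chains. Prenephritic arrays ran from 12.43 to 12.72 with a median of 12.66, and nephritic arrays from 12.19 to 12.52 with a median of 12.24. Remission arrays read 12.32, 12.09, 12.29 and 12.65. Nephritic arrays were below the lowest prenephritic array in 6 of 7 cases, the exception being nephritic array 4, and in remission array 4 alone sat among the prenephritic ones. The fall in nephritis was -0.33 ± 0.08 (interval -0.50 to -0.15; limma, adjusted p = 0.016). It was -0.32 with array medians subtracted and then missed the threshold (adjusted p = 0.062). Remission did not pass the test against nephritis, at 0.05 ± 0.09 (interval -0.14 to 0.25; adjusted p = 0.77), and the sign turned without remission array 4, to -0.05. Against prenephritic arrays remission was -0.27 ± 0.10, with an interval of -0.48 to -0.07, an unadjusted p of 0.011 and an adjusted p of 0.20 (limma).

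**Figure D2:**
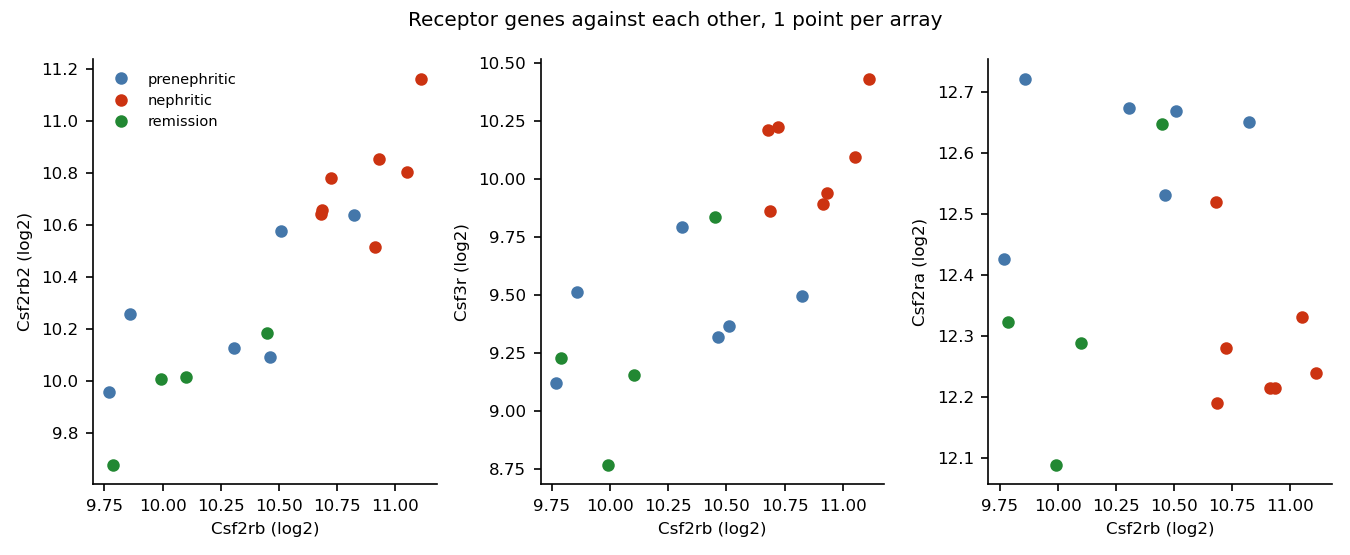
Log2 level of Csf2rb2, Csf3r and Csf2ra (y axes) against that of Csf2rb (x axes), 1 point per array, coloured by group. Nephritic points lie at the upper right for Csf2rb2 and Csf3r and mostly at the lower right for Csf2ra.

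How the receptor chains varied together was described over the 17 arrays, which share the group differences and the tubule content. Csf2rb correlated with Csf3r at r = 0.78, and at 0.40 within groups. Csf2ra and Csf3r correlated at -0.05 over all arrays but at 0.80 within groups, a tendency that not every array followed. Remission arrays 2 and 4 were the lowest and highest of their group in both genes. Nephritic array 1 had the highest Csf3r of its group (10.43) but a Csf2ra at the group's median (12.24). Csf2ra correlated with Csf2rb and Csf2rb2 at -0.20 and -0.17 over all arrays, and at 0.28 and 0.27 within groups. Csf1r and Csf2ra correlated at 0.71, and at 0.42 within groups.

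Csf1r, the receptor of CSF-1 and IL-34, had a high level in all 3 groups and small differences between them. Its level ran from 13.40 to 13.51 before nephritis (median 13.49) and from 13.24 to 13.44 in nephritis (median 13.29). Remission arrays read 13.44, 13.32, 13.31 and 13.51. Nephritic arrays lay below the lowest prenephritic one in 6 of 7 cases, nephritic array 3 being the exception, and the remission arrays overlapped both groups. The nephritic difference was -0.16 ± 0.05 (interval -0.26 to -0.05), a factor of 1.12, and just missed the threshold (limma, adjusted p = 0.051). It missed it in 21 of 27 alternatives, among them subtraction of array medians (adjusted p = 0.25) and the fit without prenephritic array 5 and nephritic array 6 (adjusted p = 0.14). It passed without nephritic array 3 (-0.18, adjusted p = 0.028), without prenephritic array 2 (-0.17, adjusted p = 0.0497) and without remission array 4 (adjusted p = 0.044). It also passed after a repeated quantile normalization (-0.19, adjusted p = 0.016), with a variance trend and robust prior (adjusted p = 0.023) and with the tubule score as a covariate (-0.17, adjusted p = 0.013). Remission was 0.08 ± 0.06 from nephritis and -0.08 ± 0.06 from prenephritic (limma, adjusted p = 0.37 and 0.46).

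Csf1, the gene of the ligand CSF-1, was measured above the lower quartile on all 17 arrays. It ran from 6.12 to 6.42 before nephritis (median 6.24) and from 6.16 to 6.54 in nephritis (median 6.36), and read 6.13, 6.01, 6.14 and 6.25 in remission. The groups overlapped, with 3 of 4 remission arrays below the lowest nephritic one. The differences were 0.13 ± 0.07 in nephritis (interval -0.03 to 0.28; limma, adjusted p = 0.29) and -0.25 ± 0.08 in remission (interval -0.42 to -0.07; adjusted p = 0.057). The second passed without nephritic array 7 (-0.28, adjusted p = 0.031), without remission array 4 (-0.28, adjusted p = 0.040) and with array weights (-0.24, adjusted p = 0.035).

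Il34, the gene of the other CSF-1 receptor ligand, lay below the lower quartile on 14 of 17 arrays, so its differences are compressed. It ran from 4.32 to 4.62 before nephritis (median 4.57) and from 4.62 to 5.24 in nephritis (median 4.80), and read 4.51, 4.88, 4.68 and 4.29 in remission. Nephritic arrays exceeded the highest prenephritic one in 6 of 7 cases, and the 3 arrays above the quartile were nephritic. The rise was 0.39 ± 0.12 (interval 0.14 to 0.64; limma, adjusted p = 0.040). The call was lost on leaving out any 1 of prenephritic arrays 1, 3 and 5 (adjusted p = 0.090, 0.090 and 0.065) or nephritic arrays 1, 5 and 6 (adjusted p = 0.083, 0.080 and 0.078), and without prenephritic array 5 and nephritic array 6 together (0.37, adjusted p = 0.11). Remission was -0.31 ± 0.13 from nephritis (limma, adjusted p = 0.13).

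Several of the 8 genes also varied with the tubule transcripts. A score averaging 23 proximal and distal tubule genes, centred over all arrays, correlated with Il34 at r = 0.24 over 17 arrays and at 0.68 within groups, with Csf1r at -0.31 and -0.73, and with Csf1 at -0.59 and -0.41. It correlated with Csf3r at -0.64 and -0.61, and with Csf2rb and Csf2rb2 at -0.48 and -0.50 (-0.26 and -0.23 within groups). The score ran from -1.11 to 0.82 before nephritis, from -2.33 to 0.63 in nephritis and from -0.02 to 1.47 in remission. With the score as a covariate, Il34 stood at -0.53 in remission against nephritis (limma, adjusted p = 0.013) and its remission minus prenephritic difference turned from 0.08 to -0.10. In the same fit the Csf3r fall was smaller, -0.59 (adjusted p = 0.034), and the remission minus nephritic difference was -0.17 for Csf1 (adjusted p = 0.30) and 0.16 for Csf1r (adjusted p = 0.11).

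Csf2, the gene of GM-CSF, was below the lower quartile on all 17 arrays. It ran from 3.84 to 4.09 before nephritis (median 3.96) and from 3.84 to 4.29 in nephritis (median 4.12), and read 3.95, 3.75, 3.88 and 3.93 in remission. The groups overlapped, and at this level no difference in transcript amount can be read. The differences were 0.11 ± 0.08 and -0.19 ± 0.09 (limma, adjusted p = 0.45 and 0.17). T and NK cell markers, from cells that are a known source of GM-CSF, averaged below the lower quartile for 4, 3 and 7 of 14 genes in the 3 groups. Of the 14, 4 were higher in nephritis, among them the CD3 chain genes Cd3g (1.47) and Cd3e (0.67), 1 was lower, and 7 were lower in remission. The shares of all genes were 6.74% higher and 5.32% lower in nephritis and 10.0% lower in remission. Called or not, 8 of the 14 differences in nephritis were positive and 6 were negative. Their mean level ranged from 5.21 to 5.82, 5.51 to 5.93 and 5.08 to 5.34 over the arrays of the 3 groups, and their part in these results was not tested.

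**Figure D3:**
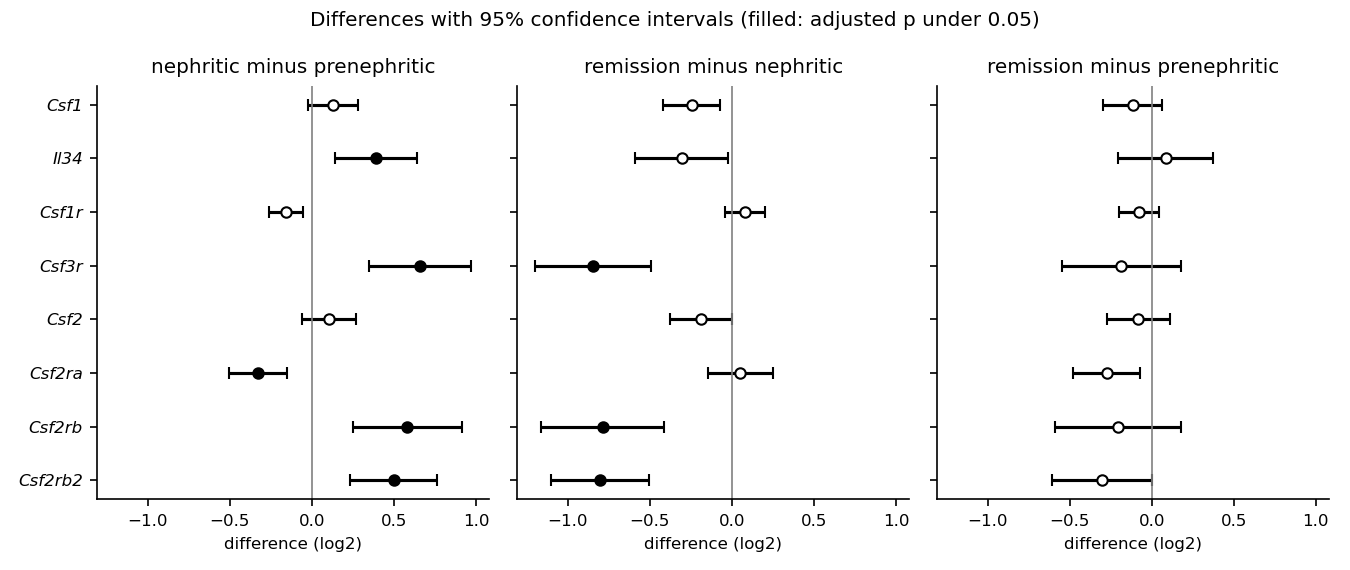
Log2 difference (x axis) of each of the 8 genes (y axis) in the 3 comparisons, with its 95% confidence interval from limma. Filled points have an adjusted p under 0.05. Csf2rb, Csf2rb2 and Csf3r are filled and above 0 in nephritis and filled and below 0 in remission, Csf2ra is filled and below 0 in nephritis alone, and no point is filled for remission minus prenephritic.

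The remaining ligands and receptors of the family gave no call. Il3ra, the IL-3 receptor alpha chain, was the 1 gene of 5 above the lower quartile, with means of 9.24, 8.93 and 8.92 in prenephritic, nephritic and remission arrays and a nephritic difference of -0.31 ± 0.14 (limma, adjusted p = 0.17). Il3, Il5, Il5ra and Csf3, the genes of IL-3, IL-5, the IL-5 receptor alpha chain and G-CSF, averaged below 5.03 in every group and had nephritic differences of -0.04, -0.01, -0.00 and 0.09. With limma 0 of the 5 passed in either direction in any comparison, and 1 was lower at an unadjusted p under 0.05 in nephritis. Csf3, the ligand gene of the receptor that rose, thus stayed near the floor of the array in all 3 groups.

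Among 6 genes of other IL-34 receptors and kinases related to Csf1r, Sdc1 rose in nephritis and Flt3 fell. Sdc1, a proteoglycan that can bind IL-34 and also marks plasma cells, averaged 6.50, 7.45 and 6.49 in the 3 groups, a rise of 0.95 ± 0.25 and a fall of -0.97 ± 0.28 (limma, adjusted p = 0.019 and 0.033). Flt3, the receptor of the dendritic cell growth factor, averaged 7.01, 5.38 and 5.23, a nephritic difference of -1.63 ± 0.50 (limma, adjusted p = 0.042). Pdgfrb, the PDGF receptor of mesangial cells and pericytes, was -0.63 ± 0.20 in remission against nephritis (adjusted p = 0.045). The Flt3 call was lost on leaving out any single array other than prenephritic array 3 or 6, nephritic array 3 or remission array 1, 2 or 4. In remission against nephritis 2 of the 6 genes were lower (33.3%, against 10.0% of all genes). That count was 0 without nephritic array 1, 6 or 7 or remission array 3 or 4. It was 1 without prenephritic array 2, 3, 4 or 6 or remission array 1 or 2. Without prenephritic array 5 and nephritic array 6 together, 0 genes of this list were lower in either comparison. In the same samples 4 of 8 B and plasma cell markers were higher and 1 was lower in nephritis. Of 8 dendritic cell markers 3 were lower and 1 was higher, against 5.32% lower and 6.74% higher over all genes. The dendritic markers' mean level ranged from 6.14 to 8.38, 6.03 to 7.37 and 5.79 to 6.91, the B and plasma cell markers' from 6.08 to 7.25, 6.96 to 7.76 and 6.51 to 6.74, and their part was not tested. Kit, Pdgfra and Ptprz1 did not pass the test in nephritis (differences 0.58, -0.17 and 0.04) or in remission.

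Downstream of the CSF-1 receptor, 6 of 22 measured signalling genes rose in nephritis and 10 fell in remission (27.3% and 45.5%, against 6.74% and 10.0% of all genes). With limma 0 fell in nephritis and 0 rose in remission, against 3 and 1 at an unadjusted p under 0.05. The Src family kinase Fgr had the largest difference of those named, from 9.86 to 11.23 and back to 9.64 (1.37 ± 0.21, then -1.59 ± 0.24; limma, adjusted p = 0.00053 and 0.00051). Fyn, another Src family kinase, rose from 10.32 to 11.19 and fell to 10.14 (0.87 ± 0.14 and -1.05 ± 0.15). Sos1, an exchange factor for Ras, rose by 0.53 ± 0.11, and Cblb, a ubiquitin ligase that limits receptor signalling, by 0.52 ± 0.11 (limma, adjusted p = 0.0034 and 0.0040). For these 4 genes, which were named for their small p, nephritic arrays did not overlap prenephritic or remission arrays. The share of all genes without such overlap was not counted, so the absence of overlap only describes these 4. In remission Cblb was at -0.89 ± 0.12 and the adaptor gene Shc1 at -0.38 ± 0.09 from nephritis (limma, adjusted p = 0.00022 and 0.0092). The medians over the 22 genes were 0.12 in nephritis and -0.38 in remission. With the tubule score as a covariate 3 of the 22 were called lower in nephritis. The remission count was 4 with the covariate, 5 without remission array 1 and 4 without remission array 2.

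Of 17 measured genes of beta chain signalling through JAK and STAT proteins, 3 rose in nephritis and 7 fell in remission (17.6% and 41.2%, against 6.74% and 10.0% of all genes). With limma 0 fell in nephritis and 0 rose in remission, against 1 and 0 at an unadjusted p under 0.05. Stat3, a transcription factor that the G-CSF receptor also activates, rose from 9.98 to 10.62 and fell to 9.82 (0.64 ± 0.09 and -0.79 ± 0.10; limma, adjusted p = 0.00020 and 0.00015). Socs3, the feedback inhibitor of that receptor, rose from 10.10 to 11.41 and fell to 9.98 (1.31 ± 0.34 and -1.44 ± 0.38; adjusted p = 0.018 and 0.020). Ptpn6, which encodes the phosphatase SHP-1, rose by 0.29 ± 0.08 (adjusted p = 0.035). Stat5a and Jak2, the main transducers of GM-CSF, were at -0.31 ± 0.09 and -0.41 ± 0.12 in remission against nephritis (limma, adjusted p = 0.025 and 0.029). The count of genes lower in remission was not stable. It was 2, 1 and 1 without remission array 1, 2 or 3 in turn, 3, 4, 4 and 3 without nephritic array 1, 3, 4 or 7, 3 with array medians subtracted and 2 with the tubule score as a covariate.

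Transcription factors of the Csf1r and CSF receptor genes gave 1 gene of 17 higher and 4 lower in nephritis (5.88% and 23.5%, against 6.74% and 5.32% of all genes), so the higher share was near the background. The interferon regulatory factor genes Irf4 and Irf8 were at -0.67 ± 0.15 and -0.42 ± 0.13, and Runx1, a factor of the Csf1r enhancer, at -0.64 ± 0.16 (limma, adjusted p = 0.0066, 0.039 and 0.017). Cebpb, a C/EBP factor of inflammatory macrophages, rose from 8.94 to 9.57 and was the 1 gene of the list to fall in remission, to 8.74 (0.63 ± 0.17 and -0.83 ± 0.19; adjusted p = 0.022 and 0.0090). The share of the list called lower in remission was thus 5.88%, against 10.0% of all genes. Spi1, the gene of PU.1, did not pass the test in remission (-0.43 ± 0.16; adjusted p = 0.086). Without prenephritic array 5 the rise of Cebpb in nephritis was not called, and without remission array 2, or with the tubule score as a covariate, 0 genes of the list were called lower in remission. That count of 1 lower was 4 with array weights and 3 without remission array 4, and it moved in 7 of 27 alternatives. With the covariate 2 genes of the list were called higher in remission. The count of 4 lower genes was 2 without any 1 of prenephritic arrays 1, 3, 4 and 5 and nephritic arrays 2, 5 and 7, and 2 with array medians subtracted.

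Genes known to be raised by the factors themselves did not move one way in nephritis. Of 11 CSF-1-raised genes, Apoe (0.58) and Sqle (0.39), of lipid transport and sterol synthesis, rose in nephritis, Myc (-0.56) and Ets2 (-0.26) fell, and 0 passed in remission with limma, where 1 was higher and 3 lower at an unadjusted p under 0.05. These calls were not stable: 0 of the 11 were higher in nephritis without any 1 of prenephritic arrays 2 and 5 and nephritic arrays 1 and 6, and 0 were lower without any 1 of prenephritic arrays 1 and 3 and nephritic array 1. Of 17 GM-CSF-raised genes, 4 rose in nephritis and the same 4 fell in remission. Il1rn, the interleukin-1 receptor antagonist gene, averaged 5.86, 8.60 and 6.11, a rise of 2.75 ± 0.28 and a fall of -2.49 ± 0.32 (limma, adjusted p = 1.6e-05 and 0.00018). Pparg, a nuclear receptor that GM-CSF induces in lung macrophages, averaged 9.75, 10.83 and 9.60 (1.08 ± 0.16 and -1.23 ± 0.18). Olr1, a scavenger receptor of oxidised lipoprotein, averaged 4.80, 6.49 and 4.30, and Itgax, the gene of CD11c, 11.11, 11.67 and 10.93. The antigen-presenting molecule gene Cd1d1 and Irf4 fell in nephritis, from 9.01 to 8.01 and from 7.71 to 7.04. The count of 4 higher was 4 in all 27 alternatives, and the count of 4 lower in remission was 5 with the tubule covariate and otherwise 4. For both lists, the shares of all genes were 6.74% higher and 5.32% lower in nephritis and 10.0% lower in remission. The medians over the 17 GM-CSF-raised genes were 0.02 in nephritis and -0.36 in remission. Between remission and prenephritic arrays 0 genes of any of these 7 lists passed with limma. At an unadjusted p under 0.05, 6 of 22 genes of CSF-1 receptor signalling and 5 of 17 of the GM-CSF-raised list were lower in remission, against 1939 of all 15780 genes. The lower genes were 2 of 17 for JAK-STAT signalling, 2 of 17 for the transcription factors and 1 of 11 for the CSF-1-raised list. They were 1 of 6 for the other receptors and 0 of 5 for the remaining ligands and receptors.

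**Figure D4:**
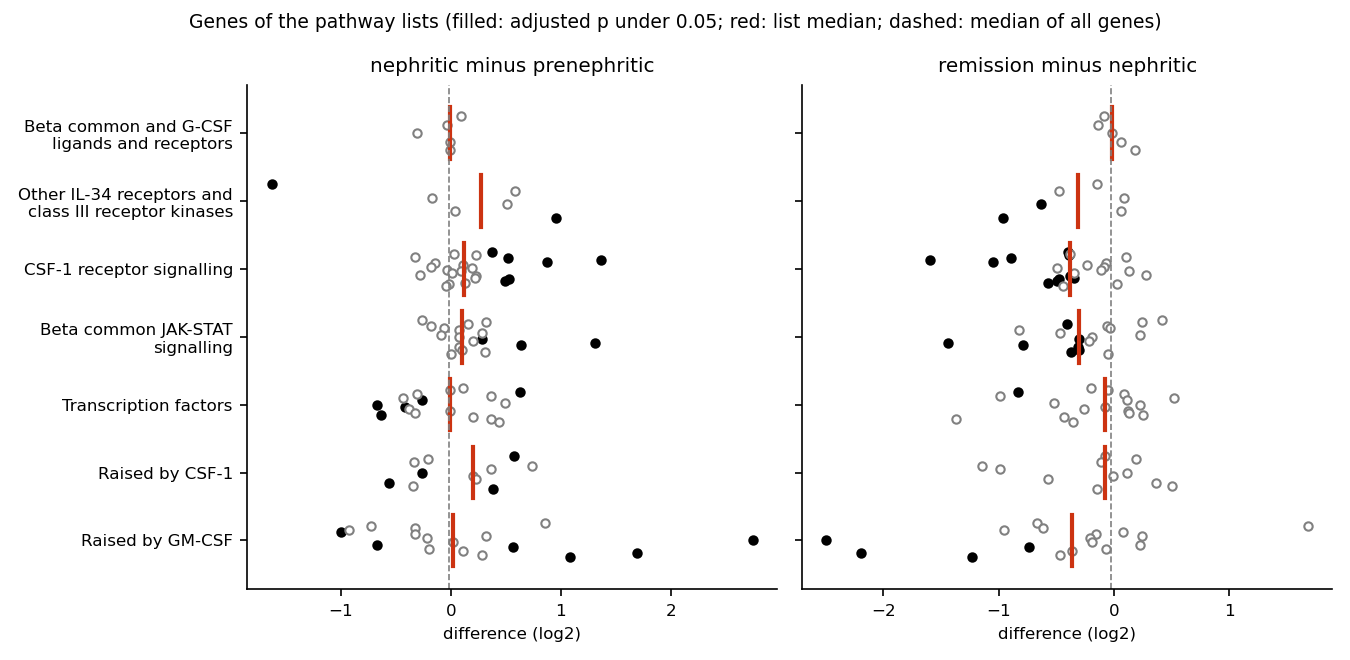
Log2 difference (x axis) of each measured gene of the 7 pathway lists (y axis), for nephritic minus prenephritic (left) and remission minus nephritic (right). Filled points have an adjusted p under 0.05 (limma), red bars are list medians and dashed lines the median of all genes (-0.02 and -0.03). On the right, filled points lie below 0 throughout.

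The genes whose levels were most like each member's over the 17 arrays were named by Pearson's r, as a description. For Csf3r they were Vav1 (0.96), an exchange factor of blood cells that is also in the JAK-STAT list, Slc11a1 (0.96), a phagosomal metal transporter, and Ncf4 (0.95), a subunit of the phagocyte oxidase, and r stayed between 0.86 and 0.95 within groups. For Csf2rb they were Psme3 (0.94), Il17ra (0.94), the interleukin-17 receptor, and Gm2a (0.92), and for Csf2rb2 Abitram (0.93), Tle3 (0.93) and Gpr35 (0.92). Each beta chain gene ranked 18th of 15779 genes for the other. For Csf2ra they were Pdzd4 (0.91), Sipa1 (0.90) and Mfng (0.89), and for Csf1r Elavl4 (0.96), Lmo2 (0.94) and Sema4c (0.92). Csf1 was most like Map3k8 (0.93), a kinase of inflammatory signalling, Tlr2 (0.92), a sensor of bacterial lipoproteins, and Plk3 (0.91). Il34 and Csf2 were left out of this description because their levels lay below the lower quartile.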

How the data were processed

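Affymetrix arrays were summarised by the authors as log2 values with RMA (background correction, quantile normalization and a summary per probe set), a tool named per the submitters' processing notes. Its version and the probe definition are not given in those sources. RMA compresses differences of dim probe sets and hides changes of total RNA. Values ran from 1.76 to 15.00 over 17 arrays; their number, not read depth, limits the precision. Of 16539 probe sets, 64 were controls, 15780 had 1 gene symbol in GEO's platform annotation, 0 several and 695 none. Of the named genes 15752 were found in RefSeq's table.

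Groups were taken from the labels. All 17 arrays and all named genes entered one model of the group means in limma (3.58.1, R 4.3.3) with 14 residual degrees of freedom and two-sided tests, and p-values were adjusted over the 15780 genes of each comparison, with a threshold of 0.05. Differences carry SE, levels SD. Alternatives changed the normalization, filter, prior, weights, samples, covariate and block, and those of the pathway lists were added after the data had been seen. The script was tested on simulated data.

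The 8 members, the 7 pathway lists and the 11 cell type lists were chosen with earlier results of these data known. The text names every member, every gene of the 2 short receptor lists, up to 4 genes of smallest p per other list and comparison, defining cell type markers, and 3 genes most like each member. The main fit has no block, because 3 of 16 arrays correlated best with an array of their own number. This check cannot exclude a pairing of some samples, and results with a block are given below.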

Additional observations from a re-analysis of the deposited data

Results flagged for a closer look

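In groups of 4, 6 and 7 arrays, 3 of 57 sets of values (19 genes, 3 groups) held an array far from its neighbours. By chance about 1 in 20 groups is flagged. Csf2ra on nephritic array 4 read 12.52, the highest of 7, against 12.33 for the next array. Csf3 on nephritic array 5 read 3.56, the lowest of 7, against 3.74 for the next. Ptprz1 on remission array 1 read 3.38, the highest of 4, against 3.28 for the next. Csf3 and Ptprz1 were among the dimmest genes of the array.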

How the results depend on the processing

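Of 24 differences (8 genes, 3 comparisons), 13 kept their direction and side of the threshold in all alternatives run, 10 settings and the 17 fits that left out 1 array. Those that did not are given beside each gene, except as follows. With the replicate block, Csf2rb and Csf2rb2 missed the threshold in nephritis (0.57 and 0.49; adjusted p = 0.071 and 0.072), Csf1 passed in remission against nephritis (-0.31, adjusted p = 0.021), and 2 members were called higher in nephritis. Same-numbered arrays of different groups had deviations correlating from -0.26 to 0.80, over 0.1 in 8 of 14 pairs, and 3 of 16 arrays correlated best with their own number. Members called lower in nephritis numbered 2 after repeated quantile normalization, 2 with a variance trend and robust prior, 2 with the tubule covariate, 0 with array medians subtracted, and 1 to 2 on leaving out an array. Il34 in remission minus prenephritic was -0.096 with the tubule covariate and ran from -0.012 (without remission array 2) to 0.18 on leaving out an array; Csf3r was 0.021 with the covariate; Csf2ra in remission minus nephritis ran from -0.051 to 0.14 on leaving out an array and was 0.15 with the covariate.

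Over all genes, those lower in nephritis numbered 537 with array medians subtracted, 1512 with the tubule covariate and 477 without prenephritic array 5 and nephritic array 6, against 840. In remission against nephritis, higher genes numbered 1239 with array weights, 1064 with the replicate block and 182 to 981 on leaving out an array, against 516, and lower genes 2385 with weights, 841 with the covariate and 839 to 1940 on leaving out an array, against 1584. In remission against prenephritic, higher genes numbered 2 after quantile normalization, 69 with weights, 234 with the block and 0 to 28 on leaving out an array, against 0. Lower genes numbered 3 after quantile normalization, 3 with medians subtracted, 3 with the trend, 289 with weights, 244 with the block, 0 with the covariate, 0 in the fit on these groups alone, 0 without both arrays and 0 to 171 on leaving out an array, against 1. The cause was not tested. The remission group held 4 arrays, and Il34 and Csf2 lay near the array's floor, where differences are compressed.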
